A study of Homo sapiens with 8 samples.

Results

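The innate immune receptors of myeloid cells were examined as gene families picked by name. Members were the genes whose symbol in the array's annotation begins with TLR, CLEC, SIGLEC, LILR, FCGR, CD300, TREM or NLRP followed by a number or a letter, without pseudogenes and antisense transcripts. This gave 33 of the 14884 named genes: 10 toll-like receptors (TLR), 11 sialic acid-binding lectins (SIGLEC), 7 CD300 receptors and 5 genes of the TREM family. The CLEC, LILR, FCGR and NLRP families had 0 members with a named probe set and were not analysed here. Each of the 33 genes had a single probe set.

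The cells were MOLM-14, a long-established human line of acute myeloid leukaemia, which had been given doxycycline for 72 h in culture. In 4 arrays the cells carried a doxycycline-driven short hairpin RNA (shCD39) that targets ENTPD1, which encodes the ectonucleotidase CD39, and in the other 4 a scrambled hairpin (shCTRL), so doxycycline and a hairpin were shared by both groups. The study sought genes whose expression depends on CD39. The labels call the 4 arrays of each group technical replicates and the source cells clones, without saying how many clones or cultures there were. A p-value here therefore reflects array-to-array spread, which may be technical. In such bulk RNA, fewer cells that use a gene and less RNA per cell cannot be told apart.

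Toll-like receptors recognise microbial lipids, proteins and nucleic acids, on the cell surface or in endosomes, and signal through the adaptor MYD88 or TICAM1. Most SIGLEC receptors and some CD300 receptors carry inhibitory motifs in their tails that recruit phosphatases. Others of these families, with TREM1 and TREM2, have short tails and signal through an adaptor protein with an activating motif, mostly TYROBP (DAP12). Monocytes and macrophages use receptors of all these kinds, and several are gained as myeloid cells mature.

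Values are log2 units of the deposited robust multi-array average (RMA), in which 1 unit is a 2-fold difference. Array medians ran from 3.13 to 3.17. Without array 4 of shCD39 the number of genes past the threshold of the comparison (below) rose from 14 to 423. The targeted gene ENTPD1 stood at -0.79 (log2, shCD39 minus shCTRL, SE 0.25, adjusted p = 0.178 by limma), with overlapping groups. It read 2.14 to 2.95 in shCD39 and 2.88 to 4.12 in shCTRL, below the background level defined below in all 8 arrays, so that these values are a weak check of the knockdown. Of 6 measured markers of myeloid leukaemia all had a mean above that level, 5 of them, such as FLT3, SPI1 and LYZ, in every array and CSF1R in the 4 shCD39 arrays alone. Of 11 measured markers of lymphoid, erythroid, fibroblast and epithelial cells 4 did, namely NKG7, PAX5, PF4 and KRT18, so a reading above that level does not by itself show that a gene is in use.

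Few of the receptors gave a clear signal in these cells. The background level was the 95th percentile, 5.10, of 120 genes of hair, skin and sensory families (such as the keratin-associated proteins) that blood cells are not known to use. Over all 8 arrays 3 of the 33 members had a mean above it, against 38.8% of all genes. These were TLR2, which binds bacterial lipoproteins, the inhibitory receptor CD300LF and the activating receptor CD300C. Nearest on either side of the level stood CD300C, with a mean of 5.29, and the inhibitory receptor CD300A, with 5.08. Probe sets differ in how brightly they read for the same amount of RNA, so levels of different genes set no order of abundance, and a gene below the level is not shown to be silent. For genes below it the log2 fold change is a difference of RMA values, not a measured fold of RNA, and the order of such differences between genes has no weight.

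TLR2 read 6.76, 6.39, 6.99 and 6.10 in shCD39 arrays 1 to 4 and 6.37, 6.39, 6.19 and 6.19 in shCTRL arrays 1 to 4. Arrays 1 and 3 of shCD39 were the highest and array 4 the lowest of all 8, and the groups overlapped (log2 fold change 0.27, SE 0.17, adjusted p = 0.518). Without shCD39 array 4 the TLR2 value was 0.43 (SE 0.15, adjusted p = 0.15). CD300LF, a receptor for lipids such as ceramide and phosphatidylserine, read 5.79, 6.16, 6.21 and 5.84 in shCD39 and 5.81, 5.76, 5.90 and 5.63 in shCTRL. Its shCD39 arrays 2 and 3 lay above every shCTRL array and the other 2 among them (0.23, SE 0.13, adjusted p = 0.451). CD300C, the paired activating receptor of CD300A, read 5.95, 5.40, 5.40 and 5.14 in shCD39 and 5.31, 5.14, 4.88 and 5.10 in shCTRL. Its 3 highest values were all from shCD39, while shCD39 array 4 lay inside the shCTRL range (0.37, SE 0.17, adjusted p = 0.336). The CD300C value was 0.21 without shCD39 array 1 and 0.48 without array 4.

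**Figure D1:**
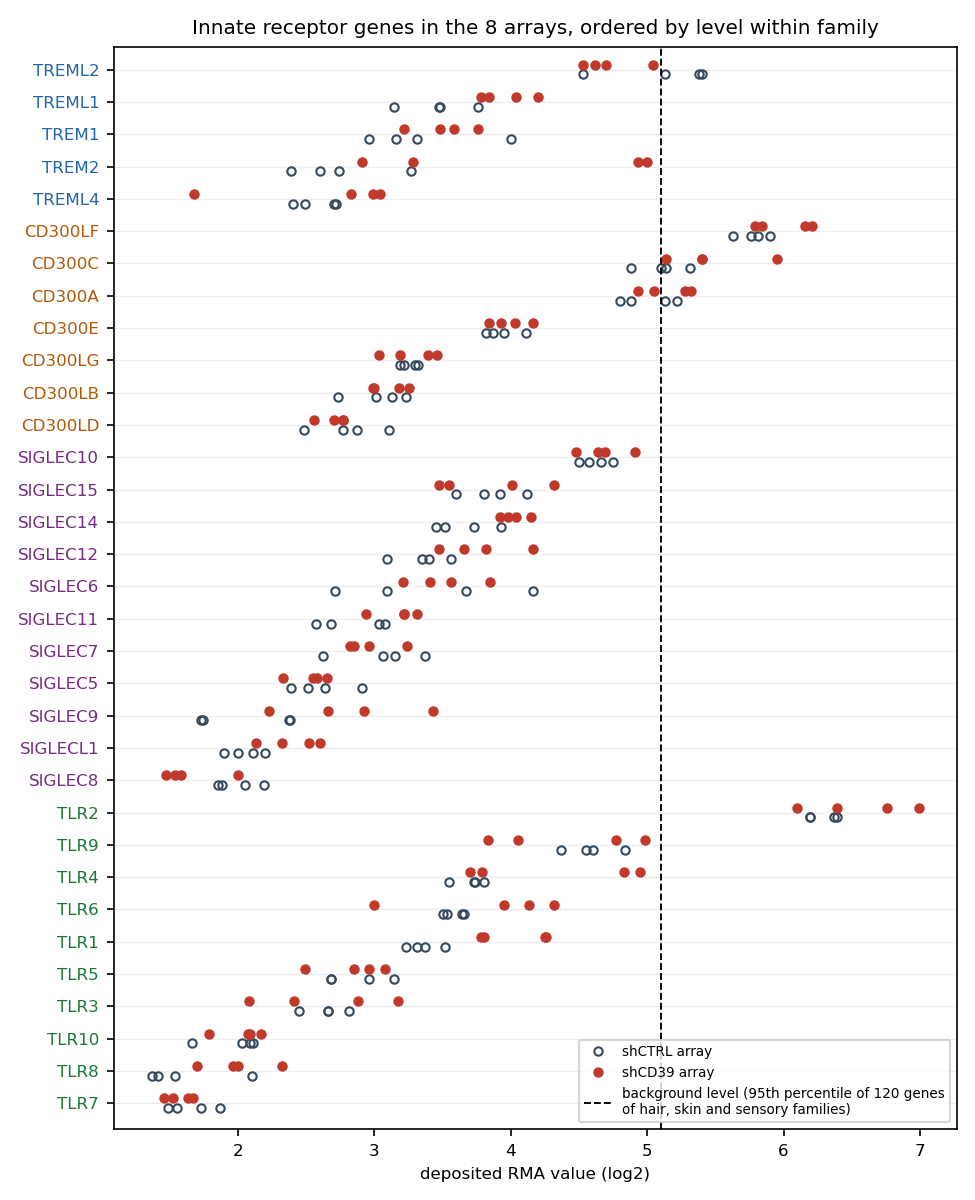
Deposited RMA values (log2, horizontal axis) of the 33 innate receptor genes (rows, ordered by their mean within each family), with filled points for the 4 shCD39 arrays and open points for the 4 shCTRL arrays; the dashed line is the background level of 5.10. TLR2 and CD300LF lie above the line in all 8 arrays, CD300C in 6, CD300A in 4 and TREML2 in 3, while the other 28 genes stay below it in every array.

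No receptor passed the threshold of the comparison, an adjusted p of 0.05 over all genes by limma. Among all genes 0.047% passed as higher and 0.047% as lower. The members' lowest adjusted p was 0.0849, that of TLR1, and 12 members had an unadjusted p under 0.05. Of these, 11 were higher in shCD39, or 33.3% of the 33 members against 6.54% of all genes, and 1 was lower, or 3.03% against 8.13%. Among the 30 members not above background 10 were higher at this p, against 6.73% of all genes not above background.

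The count of 11 moved with the scaling and with single arrays. After median centring it was 8, against 4.66% of all genes, after cyclic loess normalization 9, against 6.5%, and after quantile normalization 10, against 6.71%. It was 6 without shCD39 array 3, against 5.48% of all genes, 6 without shCTRL array 4, against 6.29%, and 7 without shCD39 array 2, against 5.84%. Without shCD39 array 4 it was 12, against 8.24%, and TLR1 then passed the threshold as higher, as did 0.746% of all genes. TLR2 and TREML4 joined those at an unadjusted p under 0.05 without this array, and SIGLEC11 left them. The count of lower members became 0, against 10.6% of all genes.

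The direction has to be read beside the dim genes as a whole. The mean was higher in shCD39 for 23 of 33 members, against 52% of all genes. Among the 30 members not above background it was higher for 20, or 66.7%, against 60.8% of all genes not above background. Among the 3 members above background it was higher for 3, against 38.2% of all genes above it. After quantile normalization 22 of 33 members had the higher mean, with shares of 51.4% and 51.1% for the dim and bright genes. The median log2 fold change of the members was 0.10, against 0.01 over all genes, and 0.05 after quantile normalization.

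By family the medians were 0.16 for TLR, 0.10 for SIGLEC, 0.08 for CD300 and 0.15 for TREM. Counts at an unadjusted p under 0.05 were 3 higher of 10 TLR genes, 5 higher and 1 lower of 11 SIGLEC genes, 1 higher of 7 CD300 genes and 2 higher of 5 TREM genes, beside the 6.54% higher and 8.13% lower of all genes. By role, the 6 toll-like receptors of the cell surface had a median of 0.27 and the 4 of endosomes one of -0.05. The 11 receptors with inhibitory motifs had a median of 0.14, and the 8 that use an activating adaptor one of 0.11. These differences between families and roles were not tested.

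**Figure D2:**
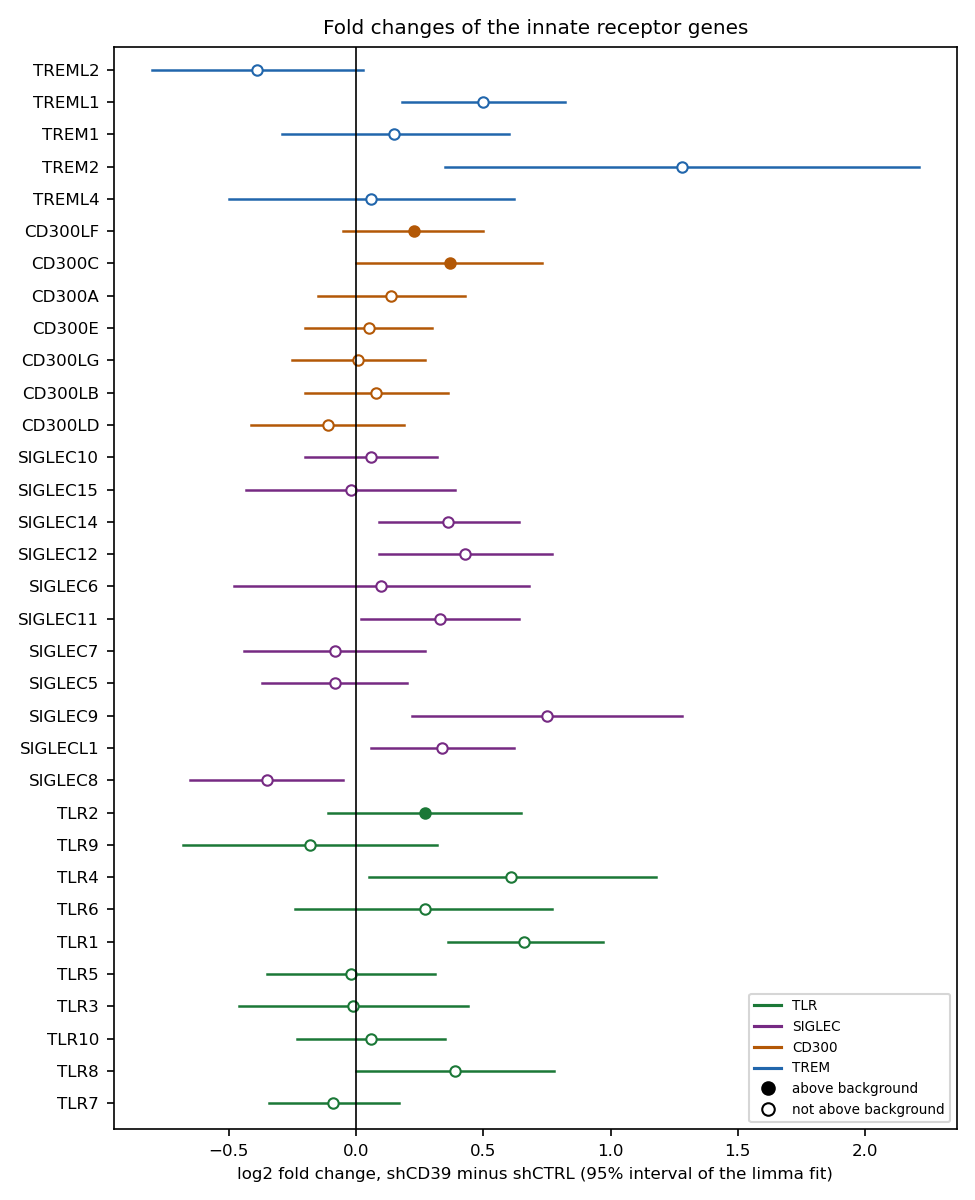
Log2 fold changes, shCD39 minus shCTRL (horizontal axis), of the 33 innate receptor genes with the 95% interval of the limma fit, coloured by family; filled points are the 3 genes above background. TREM2, below background in every array, lies at 1.28 with a wide interval from 0.35 to 2.21, and the other genes lie between -0.39 and 0.75, with most intervals reaching across 0.

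Among the surface toll-like receptors TLR1 separated the groups. TLR1 pairs with TLR2 to bind triacylated lipopeptides. It read 3.78, 4.25, 4.26 and 3.80 in shCD39 arrays 1 to 4 and 3.31, 3.37, 3.23 and 3.52 in shCTRL. Every shCD39 array lay above every shCTRL array (4.02 ± 0.27 against 3.36 ± 0.12, mean ± SD, n = 4 arrays each). The log2 fold change was 0.66 (SE 0.14, limma adjusted p = 0.0849), and the exact permutation p, 2-sided, was 0.0286, the smallest that 4 against 4 arrays allow. Every gene whose groups do not overlap has this p, so it restates the separation. Such genes were 3.61% of all genes as higher and 4.23% as lower. Without shCD39 array 4 the log2 fold change of TLR1 was 0.74 with a limma adjusted p of 0.0255. Over the 16 alternative settings in which TLR1 was tested the adjusted p ran from 0.0255 to 0.275. All values were below the background level. TLR6 and TLR10 are close relatives of TLR1 in sequence, and cross-hybridisation between them was not tested.

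TLR6, which pairs with TLR2 for diacylated lipopeptides, showed a wider spread within shCD39. It read 3.00 in shCD39 array 1, below every shCTRL array, and 3.95, 4.32 and 4.13 in arrays 2 to 4, above all of them, while shCTRL arrays ran from 3.50 to 3.66 (log2 fold change 0.27, SE 0.23, adjusted p = 0.653). Without shCD39 array 1 the TLR6 value was 0.55 (SE 0.12, adjusted p = 0.136). The log2 fold change was 0.06 for TLR10 (SE 0.13) and -0.02 for TLR5, the receptor of flagellin (SE 0.15).

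TLR4, the receptor of lipopolysaccharide, was high in 2 arrays of one group. It read 4.83, 3.70, 4.95 and 3.79 in shCD39 arrays 1 to 4 and 3.55, 3.73, 3.80 and 3.74 in shCTRL. Arrays 1 and 3 of shCD39 stood at least 1.03 units above all others, while arrays 2 and 4 lay inside the shCTRL range. The log2 fold change of 0.61 (SE 0.26, adjusted p = 0.301, exact permutation p = 0.200) thus averages unlike arrays. The co-receptors of TLR4 read below the background level in all 8 arrays, CD14 from 2.18 to 2.73 and LY96 (MD-2) from 1.14 to 2.12.

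The 4 endosomal receptors all read below the background level. TLR9, the sensor of unmethylated CpG DNA, read 4.05, 4.98, 3.83 and 4.77 in shCD39 and 4.55, 4.84, 4.60 and 4.37 in shCTRL. Here shCD39 arrays 1 and 3 were the 2 lowest of the 8 (log2 fold change -0.18, SE 0.23, adjusted p = 0.776). Of the RNA sensors the double-stranded RNA receptor TLR3 had -0.01 (SE 0.20), TLR7 -0.09 (SE 0.12) and TLR8 0.39 (SE 0.18, adjusted p = 0.337). TLR8 read 1.96, 2.00, 2.32 and 1.70 in shCD39 and 1.37, 1.54, 2.10 and 1.41 in shCTRL, and shCTRL array 3 lay above 3 of the 4 shCD39 arrays.

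TREM2 varied widely within shCD39. It is a lipid receptor of macrophages and microglia that signals through TYROBP. TREM2 read 5.00, 2.91, 4.93 and 3.28 in shCD39 arrays 1 to 4 and 2.39, 2.74, 2.60 and 3.27 in shCTRL. As in TLR4, shCD39 arrays 1 and 3 stood apart, here by at least 1.65 units, while array 2 lay inside the shCTRL range and array 4 just above its top. The mean was 4.03 ± 1.09 in shCD39 and 2.75 ± 0.38 in shCTRL, a difference of 1.28 log2 units (SE 0.42, adjusted p = 0.197, exact permutation p = 0.0571). A difference of at least 1 unit was found in 1 of the 33 members, TREM2, and in 0.134% of all genes. Leaving out single arrays moved the difference between 0.95 and 1.65. All 8 values lay below the background level, the highest being 5.00, so no fold of TREM2 RNA was measured.

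TYROBP, the adaptor of TREM2, did not share the split between arrays. It read 9.97, 10.11, 10.08 and 9.06 in shCD39 arrays 1 to 4 and 8.79, 8.90, 8.88 and 8.41 in shCTRL. All shCD39 arrays lay above all shCTRL arrays, with array 4 well below the other 3. The mean was 9.80 ± 0.50 against 8.74 ± 0.23, or 2.09-fold (log2 1.06, SE 0.22, limma adjusted p = 0.0822, exact permutation p = 0.0286). It passed in 3 of 17 alternative settings: without shCD39 array 4, where 423 genes passed in all, the log2 fold change was 1.31 (adjusted p = 0.00414), with array weights, where 124 passed, it was 1.09 (0.0382), and among genes above background 1.06 (0.0467). Over all 17 the adjusted p ran from 0.00414 to 0.260.

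The promoters of TREM2, TYROBP and TLR4 are shown because TREM2 and TLR4 stood apart in shCD39 arrays 1 and 3, while TYROBP was as high in array 2. The 250 bases before the first start listed by RefSeq (GRCh38.p14) are printed 5′ to 3′ on the strand of the gene. They lie at chr6:41163117-41163366 on the minus strand for TREM2, chr19:35908296-35908545 on the minus strand for TYROBP and chr9:117704153-117704402 on the plus strand for TLR4. Capitals mark GAGGAA, or TTCCTC for the other strand, the core bound by PU.1 (SPI1), a transcription factor of myeloid cells.
TREM2: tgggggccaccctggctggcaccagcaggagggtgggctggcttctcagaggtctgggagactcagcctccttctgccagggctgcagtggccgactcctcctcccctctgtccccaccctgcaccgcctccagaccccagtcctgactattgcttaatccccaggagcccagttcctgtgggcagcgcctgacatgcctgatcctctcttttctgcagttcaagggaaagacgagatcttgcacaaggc
TYROBP: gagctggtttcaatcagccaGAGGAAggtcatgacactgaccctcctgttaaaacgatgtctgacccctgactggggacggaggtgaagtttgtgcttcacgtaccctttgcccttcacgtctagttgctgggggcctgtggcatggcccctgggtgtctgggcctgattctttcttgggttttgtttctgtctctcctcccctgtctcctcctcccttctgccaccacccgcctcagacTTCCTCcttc
TLR4: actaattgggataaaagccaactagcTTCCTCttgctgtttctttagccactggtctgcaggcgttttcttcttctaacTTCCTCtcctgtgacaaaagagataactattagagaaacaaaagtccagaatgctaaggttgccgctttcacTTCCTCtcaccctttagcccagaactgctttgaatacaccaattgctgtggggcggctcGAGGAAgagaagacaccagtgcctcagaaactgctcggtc
The TLR4 window held 4 matches, which begin 224, 171, 99 and 40 bases before the start. TYROBP held 2 matches, at 230 and 10 bases, and TREM2 held 0. A window of this length was at hand for 25 of the 33 members, and 12 of these, or 48%, held a match, against 23.4% of 27305 promoters. The AP-1 motif TGANTCA was in 2 of the 25 (6.60% of all promoters) and the E-box CACGTG in 3 (6.49%). Both strands were searched, and none of the 3 motifs contains another. These matches describe the letters of the windows. The log2 fold change of SPI1 itself was 0.13 (SE 0.13, adjusted p = 0.724).

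Arrays 1 and 3 of shCD39 lay above all 6 other arrays in 6 of the 33 receptors, against 9.10% of all genes. The 6 receptors were TREM2, TLR4, TLR2, SIGLEC9, TREML1 and TREML4. This pair of arrays was itself picked after the values were seen, so the count is no test. The same held in 7 of the 41 signalling partners described below, or 17.1%. The highest value of a member came from shCD39 array 3 in 11 of 33 genes, against 15.24% of all genes, and the lowest from shCTRL array 1 in 9, against 12.97%. These were the largest such counts of any array and were likewise picked after the values were seen. The lowest value came from shCD39 array 1 in 5 members, against 12.75% of all genes, and from shCD39 array 3 in 4, against 16.84%.

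**Figure D3:**
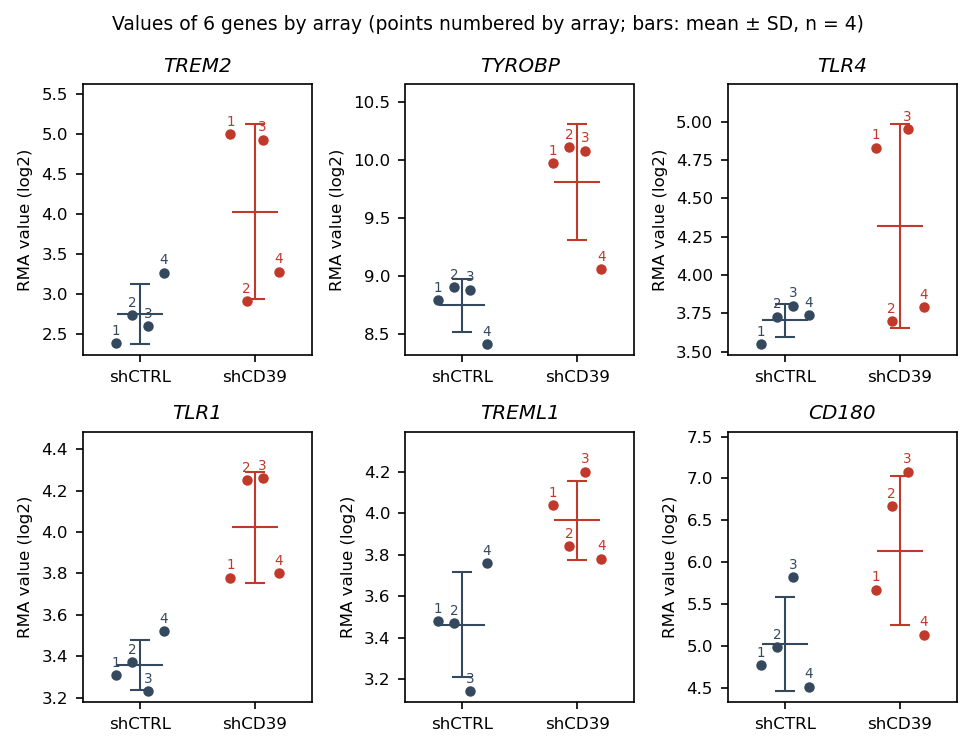
RMA values (log2, vertical axis, scaled separately in each panel and not starting at 0) of TREM2, its adaptor TYROBP, TLR4, TLR1, TREML1 and the TLR4 relative CD180 in the 4 shCTRL and 4 shCD39 arrays; points carry the array number and bars give mean ± SD. In TREM2 and TLR4 shCD39 arrays 1 and 3 stand apart from the other 6, in TYROBP shCD39 arrays 1 to 3 are near 10 with array 4 at 9.06, and in TLR1 and TREML1 the groups do not overlap.

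TREML1, a TREM1 relative known from platelets and counted among receptors with inhibitory motifs, was the other receptor whose groups did not overlap. It read 4.04, 3.84, 4.20 and 3.78 in shCD39 and 3.48, 3.47, 3.14 and 3.76 in shCTRL. The gap between shCD39 array 4 and shCTRL array 4 was very small. The log2 fold change was 0.50 (SE 0.15, limma adjusted p = 0.154, exact permutation p = 0.0286). Groups without overlap were thus found in 2 of 33 members in this direction, TLR1 and TREML1, against 3.61% of all genes, and in 0 members in the other, against 4.23%.

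The remaining genes of the TREM family gave no common direction. TREM1, which amplifies inflammatory signals in monocytes and neutrophils, stood at 0.15 (SE 0.20, adjusted p = 0.792). TREML2 read 4.53, 5.04, 4.62 and 4.70 in shCD39 and 5.38, 5.13, 5.40 and 4.53 in shCTRL. Its log2 fold change was -0.39 (SE 0.19, adjusted p = 0.373), and shCTRL array 4 was as low as the lowest shCD39 array. TREML4 read 2.99, 2.83, 3.04 and 1.68 in shCD39 and 2.40, 2.49, 2.70 and 2.72 in shCTRL. Its first 3 shCD39 arrays lay above every shCTRL array and array 4 below them all (0.06, SE 0.26, adjusted p = 0.949). Without array 4 the TREML4 value was 0.38 (SE 0.12, adjusted p = 0.127).

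The SIGLEC receptors, which bind sialic acids on the cell's own surface and on other cells, were dim throughout. None of the 11 had a mean above background, and all means were at most 4.65. SIGLEC9, an inhibitory receptor of monocytes and neutrophils, read 2.92, 2.23, 3.43 and 2.66 in shCD39 and 1.73, 2.38, 2.37 and 1.74 in shCTRL, so that shCD39 array 2 fell inside the shCTRL range (0.75, SE 0.24, adjusted p = 0.186, exact permutation p = 0.0857).

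SIGLEC14, which signals through TYROBP, read 4.15, 3.98, 3.92 and 4.04 in shCD39 and 3.45, 3.93, 3.73 and 3.52 in shCTRL. Its shCD39 arrays were close together, and shCTRL array 2 overlapped the lowest of them (0.36, SE 0.13, adjusted p = 0.209). SIGLEC5, its inhibitory partner with a nearly identical outer part, had -0.08 (SE 0.13), and cross-hybridisation between the pair was not tested.

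SIGLEC12 (0.43, SE 0.16, adjusted p = 0.230), SIGLEC11 (0.33, SE 0.14, adjusted p = 0.305) and SIGLECL1 (0.34, SE 0.13, adjusted p = 0.243) had 3 of 4 shCD39 arrays above every shCTRL array. SIGLEC8, known from eosinophils and mast cells, was the member lower at an unadjusted p under 0.05. It read 1.47, 1.58, 2.00 and 1.54 in shCD39 and 2.05, 2.19, 1.85 and 1.88 in shCTRL, where shCD39 array 3 overlapped (-0.35, SE 0.14, adjusted p = 0.266). Without shCD39 array 4 the SIGLEC8 value was -0.31 (SE 0.15, adjusted p = 0.294), no longer under an unadjusted p of 0.05. So far below the background level RMA values change little with RNA. SIGLEC6, SIGLEC7, SIGLEC10 and SIGLEC15 had log2 fold changes between -0.08 and 0.10.

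The CD300 family held 2 of the 3 receptors above background, CD300LF and CD300C, described above. CD300A, an inhibitory receptor for phosphatidylserine and phosphatidylethanolamine, read 4.93, 5.28, 5.05 and 5.32 in shCD39 and 4.80, 5.22, 4.88 and 5.13 in shCTRL (0.14, SE 0.13, adjusted p = 0.693, 95% interval from -0.15 to 0.43). The same interval was -0.05 to 0.50 for CD300LF. CD300E, an activating receptor of monocytes, had 0.05 (SE 0.11) and CD300LB, another partner of TYROBP, 0.08 (SE 0.13). CD300LD had -0.11 (SE 0.14) and CD300LG, known from endothelium, 0.01 (SE 0.12). CD300A and CD300C are much alike in their outer part, and whether their probes respond to each other's RNA was not tested.

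The signalling partners of these receptors were taken from a list of 61 adaptors, kinases, phosphatases, co-receptors and inflammasome genes, of which 41 were measured. The listed phosphatases PTPN6, PTPN11 and INPP5D were not among the 41 and were not analysed here. No partner passed the threshold, and 28 of the 41 had a mean above background. At an unadjusted p under 0.05 by limma 4 were higher, or 9.76% against 6.54% of all genes, and 1 was lower, or 2.44% against 8.13%. Without shCD39 array 4 these counts were 5 and 2, with LCP2 and MALT1 added, against 8.24% and 10.6% of all genes. The median log2 fold change was 0.06. Apart from TYROBP the adaptor HCST (DAP10) read 7.74, 7.12, 7.23 and 7.20 in shCD39 and 6.92, 7.24, 6.71 and 6.79 in shCTRL (0.41, SE 0.16, adjusted p = 0.259). HCST and TYROBP are neighbours in the genome. No value is given for FCER1G, which was not analysed here.

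CD180, a relative of TLR4 that pairs with LY86 (MD-1), had the largest difference of RMA values among the partners. It read 5.67, 6.67, 7.08 and 5.13 in shCD39 and 4.77, 4.98, 5.82 and 4.51 in shCTRL. Arrays 2 and 3 of shCD39 lay above every shCTRL array, and arrays 1 and 4 below shCTRL array 3 (1.12, SE 0.39, adjusted p = 0.217, exact permutation p = 0.0857). Its shCTRL arrays 1, 2 and 4 and its shCTRL mean of 5.02 were below the background level, and its shCD39 mean was 6.14. The CD180 value is thus no measured fold of RNA, and its place ahead of TYROBP has no weight. LY86 had 0.08 (SE 0.21) at values from 7.77 to 8.91.

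The adaptors and kinases downstream of the toll-like receptors differed little. MYD88, used by all toll-like receptors except TLR3, had 0.04 (SE 0.14, 95% interval from -0.27 to 0.35), and IRAK1, a kinase it recruits, -0.25 (SE 0.16, adjusted p = 0.523). UNC93B1, which carries the endosomal receptors to their compartment, had 0.08 (SE 0.10). SYK, the kinase that binds TYROBP, had 0.05 (SE 0.12, 95% interval from -0.22 to 0.32). LCP2 (SLP-76), a scaffold downstream of SYK, had 0.30 (SE 0.14, adjusted p = 0.372), and MALT1, the protease of the CARD9 and BCL10 complex, -0.27 (SE 0.13, adjusted p = 0.354).

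Of the inflammasome genes PYCARD (ASC), the adaptor that links sensors to caspase-1, read 9.42, 9.53, 9.51 and 9.12 in shCD39 and 8.85, 9.16, 8.79 and 9.24 in shCTRL. Arrays 1 to 3 of shCD39 lay above every shCTRL array (0.38, SE 0.14, adjusted p = 0.228). IL18, a cytokine matured by caspase-1, went the other way. It read 5.85, 6.56, 5.68 and 6.54 in shCD39 and 6.85, 7.11, 6.88 and 6.59 in shCTRL, and every shCD39 array lay below every shCTRL array (-0.70, SE 0.20, limma adjusted p = 0.154, exact permutation p = 0.0286). The groups did not overlap in 1 of 41 partners in each direction, TYROBP and IL18, or 2.44% each, against 3.61% of all genes higher and 4.23% lower. MEFV (pyrin) had 0.33 (SE 0.18) and MAG, a SIGLEC family member of myelin, 0.17 (SE 0.12), both below background.

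**Figure D4:**
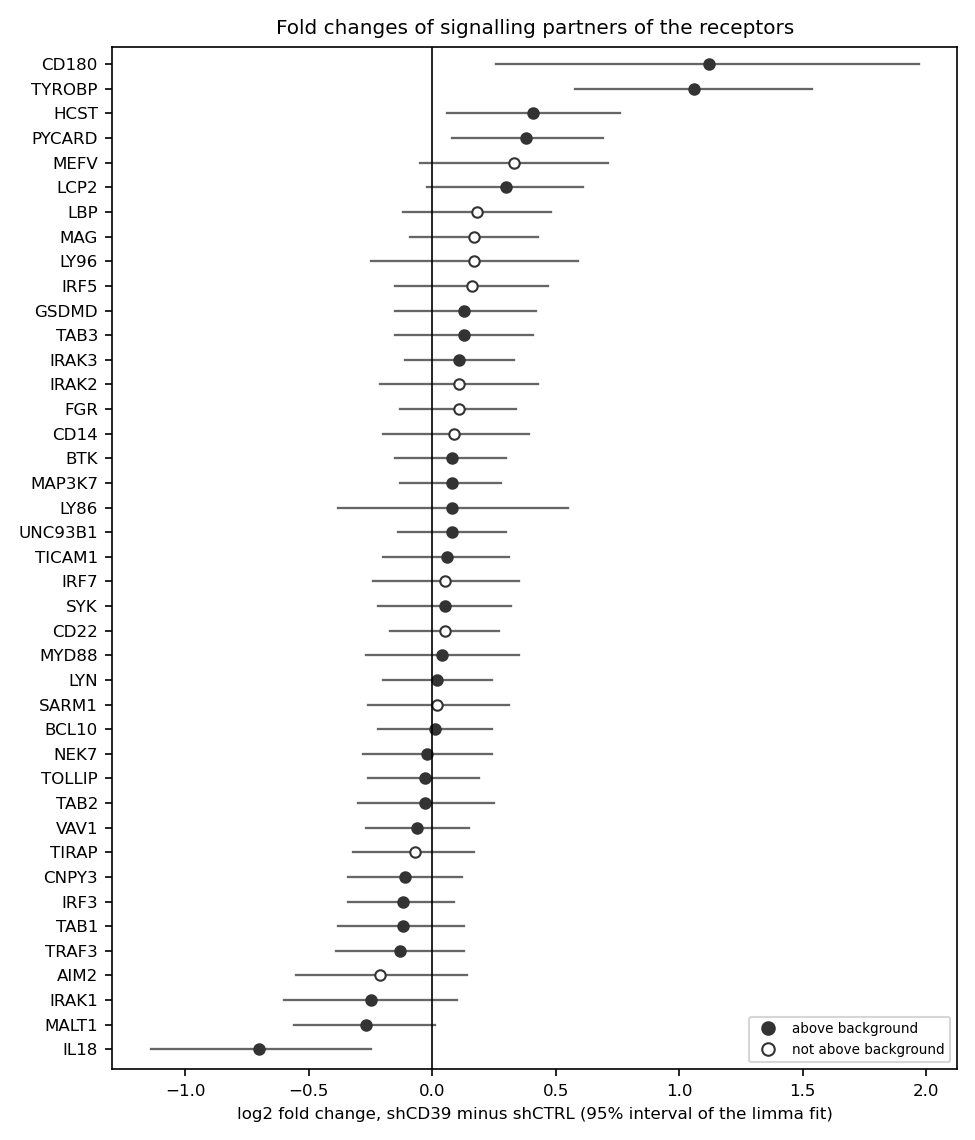
Log2 fold changes, shCD39 minus shCTRL (horizontal axis), of the 41 measured signalling partners with the 95% interval of the limma fit, ordered by value; filled points are the 28 genes above background. CD180 (1.12) and TYROBP (1.06) lie apart at the top and IL18 (-0.70) at the bottom, while MYD88 and SYK lie near 0.

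Values of markers stood beside these results as follows. Summed over the 6 measured markers of myeloid leukaemia, shCD39 arrays ran from 44.82 to 47.85 and shCTRL arrays from 43.32 to 45.08, and 0 of the 6 passed the threshold. Its members went different ways. LYZ, the lysozyme of monocytes and granulocytes, read 10.10, 10.18, 10.63 and 9.25 in shCD39 and 8.72, 8.99, 9.13 and 9.07 in shCTRL, a log2 difference of 1.07 (SE 0.24, limma adjusted p = 0.0926). CSF1R, the growth factor receptor of monocytes and macrophages, read 5.67, 6.72, 6.29 and 5.11 in shCD39 and 4.24, 4.76, 4.82 and 4.53 in shCTRL (1.36, SE 0.29, adjusted p = 0.0849). In both, every shCD39 array lay above every shCTRL array, as in TYROBP, TLR1 and TREML1. FLT3 (-0.29, SE 0.15), MEIS1 (-0.28, SE 0.15) and MPO (-0.40, SE 0.39) had negative values with overlapping groups. MPO read 6.54, 7.67, 6.26 and 7.67 in shCD39 and 7.04, 7.93, 6.59 and 8.19 in shCTRL. Each of its shCD39 arrays thus lay below the shCTRL array of the same number, though whether the numbers pair samples is not known. In FLT3 and MEIS1 shCD39 array 4 lay above shCTRL array 4. Among the markers of other cells the groups did not overlap in NKG7 (0.50, SE 0.13) and EPCAM (0.22, SE 0.10), higher in shCD39, and PAX5 (-0.27, SE 0.11), lower. EPCAM lay below the background level in every array. Groups without overlap were found in 3.61% of all genes as higher and 4.23% as lower. The sums over 3 markers of T and NK cells were 12.44 to 14.09 and 12.35 to 13.22. Over 5 markers of fibroblasts and epithelium they were 20.26 to 20.86 and 19.29 to 20.04, with DCN at most 1.57 in any array. The single B cell marker measured, PAX5, read 6.46 to 6.62 in shCD39 and 6.68 to 7.00 in shCTRL, and the sums over 2 erythroid and megakaryocyte markers were 8.69 to 9.47 and 8.74 to 8.96. Their part in the differences of the receptors was not tested.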

How the data were processed

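The authors deposited log2 values, 1 for each probe set and array. The submitters' processing notes name RMA and the oligo package and give no version. The method corrects background, gives all arrays a shared distribution and compresses differences of dim probe sets. Genes were named from the platform annotation (16098 of 53617 probe sets), with symbols updated through Entrez IDs against RefSeq (GRCh38.p14), all of which matched. The probe set with the highest mean stood for a gene. All 14884 genes were fitted with limma 3.58.1 in R 4.3.3, without the replicate number, with 2-sided tests and Benjamini-Hochberg adjustment. Exact permutation tests used scipy 1.17.1. The procedure was tested on simulated data. The number of arrays limits the precision.

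Members, roles and lists were chosen with earlier results of these data known. The planned background level, from olfactory receptor genes, had 0 genes to rest on; 84 KRTAP, 17 LCE, 10 SPRR, 6 TAAR and 3 VN1R genes replaced them after the data were seen. Per array values were planned for members above background with an unadjusted p under 0.05, and for the 2 brightest and the 2 largest fold changes of each family among members above background. For partners the rule named TYROBP, FCER1G, MYD88, SYK and the 10 with the lowest p. The other members with values per array, and the levels of CD14, LY96, LY86, UNC93B1, LYZ and CSF1R, were chosen after their values were seen. Over all genes same-numbered arrays did not deviate together (correlations of deviations from -0.0372 to 0.0622, other pairs from -0.0982 to 0.133). This cannot exclude a pairing that shows in some genes only. With the replicate number in the fit the SE fell for CD180 (0.39 to 0.17), TYROBP (0.22 to 0.13) and ENTPD1 (0.25 to 0.13). It rose for TLR1 (0.14 to 0.15) and TREML1 (0.15 to 0.17), and none of these genes passed the threshold. Whether the numbers pair samples is not known.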

Additional observations from a re-analysis of the deposited data

Results flagged for a closer look

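Of 92 sets of 4 arrays checked (each gene named, in each group), 2 held an array far from its group by Dixon's criterion at the 95% level, where chance gives about 1 in 20. Both were shCD39 array 4: TREML4 read 1.68 there, against 2.83 to 3.04 in the other shCD39 arrays, and TYROBP read 9.06, against 9.97 to 10.11.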

How the results depend on the processing

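By limma 11 receptors were higher and 1 lower at an unadjusted p under 0.05, against 6.54% and 8.13% of all genes. The count past the threshold was 0, and this 0 held in 15 of 17 alternatives. Array weights gave 1 higher, TLR1, with 124 genes past the threshold in all against 14, and leaving out 1 array gave 0 to 1, the 1 again TLR1, without shCD39 array 4 (423 genes in all). No receptor was lower past the threshold in any of the 17. For partners 1 gene, TYROBP, was higher with array weights and 1 among genes above background, and leaving out 1 array gave 0 to 1. At an unadjusted p under 0.05 by limma, 2 receptors were lower with array weights and 2 with median centring. The share of all genes lower in these settings is not given here. Among genes above background, where 3 receptors remain, 1 was higher and 0 lower. In the main fit 6.23% of the genes above background were higher and 15.8% lower. Leaving out 1 array gave 6 to 12 higher and 0 to 2 lower. There were 6 higher without shCD39 array 3, against 5.48% of all genes, and 6 without shCTRL array 4, against 6.29%. Without shCD39 array 4 there were 12 higher, against 8.24%, and 0 lower, against 10.6%. Without shCTRL array 4 there were 2 lower, against 8.06%. With the replicate number as a replicate block the count past the threshold was 0. The unadjusted counts were then 10 higher, against 6.32% of all genes, and 1 lower. Over all genes the block left 6 calls against 14, and 2 of 8 arrays correlated best with their own number. Above background stood 3 receptors, or 1 with the 99th percentile of the same families and 19 with the 75th. Of 531 log2 fold changes of receptors under alternatives, 529 stayed within the spread of the fit and on the same side of the threshold. Signs changed in 32, in 13 genes whose log2 fold change was at most 0.18 in size.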
